A study of Mus musculus with 2 samples.

Results

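The cytochrome P450 genes described here are those whose mouse symbol is Cyp followed by digits, a letter and digits, with Cyp51 added and with Cyp4a10, Cyp4a12a, Cyp4a14, Cyp27b1 and Cyp24a1 left out. The RefSeq gene table holds 127 such genes, of which 92 had a probe among the 20013 named genes of the array. Of the 92, 68 were well above background on both arrays, 2 on the TG+STZ array alone and 22 on neither.

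Cytochromes P450 are haem enzymes that insert an oxygen atom into drugs, steroids, fatty acids, retinoids and vitamin D, mostly in the endoplasmic reticulum of liver, kidney and gut. In the kidney the proximal tubule holds most of them, where they oxidise arachidonate and other fatty acids to epoxides and hydroxylated products that act on vessels and salt transport, and where they hydroxylate steroids. The genes lie in families of close copies, and in mice several of them differ between the sexes.

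The TG+STZ array carried RNA of male mice of the C57BL/6J strain background labelled as Sirt1-overexpressing transgenic, and the WT+STZ array RNA of male wild-type mice of the same background. Both groups were treated at 8 weeks of age with streptozotocin (STZ), which destroys pancreatic beta cells, in citrate buffer of 100 mmol/l, and their tissue was taken at 32 weeks. No group without STZ was analysed here. RNA came from glomerular regions dissected from the kidney, and the promoter of the transgene and the number of mice behind each array are not given in the sources used here. There was 1 array per group, so no test between groups was possible, and the errors given cover the reading of a single hybridisation, not the spread between mice. Signals are Agilent processed intensities before scaling, and each difference is TG+STZ minus WT+STZ in log2, after the 75th percentile of each array was subtracted. The scanner error of a difference had a median of 0.20 over the 68 genes and ran from 0.12 to 0.40, and it is printed only where it is not 0.20 to 0.21. Probes differ in how well they bind, so signals are compared between the arrays and not between genes.

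Of 43020 gene spots, 76.26% lay well above background on the TG+STZ array and 75.04% on the WT+STZ array, and none was saturated. Sirt1 stood at 2977 and 2625 intensity units on the TG+STZ and WT+STZ arrays, a difference of 0.10 that lies within the scanner error. Its single probe does not check the genotype labels, because whether it reads the transgene is not given. The dissected regions held tubule as well as glomerulus. Of 16 proximal tubule markers 15 were measured, with signals summing to 2529880 units in TG+STZ and 2384390 in WT+STZ, and their median difference was -0.01, with 7 higher and 8 lower. All 12 podocyte markers were also measured, at summed signals of 25356 and 28447 units on the TG+STZ and WT+STZ arrays and a median difference of -0.03, with Nphs1 at -0.89.

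Markers of other cells also differed between the arrays, and their part in the P450 values was not tested. Fat cell markers were higher in TG+STZ in 6 of 6 measured genes, with a median of 0.87 and summed signals of 18071 units in TG+STZ and 12570 in WT+STZ, of which Fabp4 alone gave 15379 and 11503. Cfd, the adipsin gene, read 1225 units in TG+STZ and 41.2 in WT+STZ, and Adipoq, which was not above background in WT+STZ, read 156 and 7.07. Fibroblast markers were higher in 9 of 10, with a median of 0.47 and 32395 and 24201 units in TG+STZ and WT+STZ. Leukocyte markers were lower in 10 of 10 measured genes, with a median of -0.39 and 15002 and 15816 units in TG+STZ and WT+STZ, of which Itgam alone gave 12445 and 12789. Markers of the loop of Henle, distal tubule and collecting duct were lower in 9 of 11 (median -0.15). Hepatocyte markers were lower in 6 of 7 measured genes (median -0.18), with Apoa1, Ahsg and Tdo2 not above background on both arrays. In mixed tissue, fewer cells of a type and less RNA per cell cannot be told apart.

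The promoters of genes that shared a direction are shown first, since most Cyp2d genes, a cluster of close copies, shared a direction. RefSeq (build GRCm38.p6) gives 58 windows of 300 bases, from 250 bases before to 50 after a transcript start, for 51 of the 68 measured genes. The Cyp2d genes below were all lower on the TG+STZ array except Cyp2d40, and Cyp1a1 and Cyp26b1 were among the lowest single genes. Of the 10 measured Cyp2d genes only these 5 have a window. Cyp2d34, Cyp2d37-ps and Cyp2d12, which had the largest Cyp2d differences, have none, nor do Cyp2d22 and Cyp2d13. Windows of Cyp2c39, the lowest gene, and of the Cyp4 genes are not printed. Capitals mark any match, on either strand, to TATAAA (the TATA box), CCAAT (the CCAAT box), TTCNNNGAA (a STAT site), GCGTG (the core bound by the aryl hydrocarbon receptor) or AGGTCA (a nuclear receptor half-site).
Cyp2d9 (chr15:82452127-82452426, + strand): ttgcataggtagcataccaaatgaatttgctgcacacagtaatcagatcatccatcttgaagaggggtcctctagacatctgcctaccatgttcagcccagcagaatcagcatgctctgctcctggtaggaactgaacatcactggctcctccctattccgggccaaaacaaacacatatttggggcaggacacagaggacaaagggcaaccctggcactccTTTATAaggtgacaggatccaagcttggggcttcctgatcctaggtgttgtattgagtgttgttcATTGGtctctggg
Cyp2d10 (chr15:82407145-82407444, - strand): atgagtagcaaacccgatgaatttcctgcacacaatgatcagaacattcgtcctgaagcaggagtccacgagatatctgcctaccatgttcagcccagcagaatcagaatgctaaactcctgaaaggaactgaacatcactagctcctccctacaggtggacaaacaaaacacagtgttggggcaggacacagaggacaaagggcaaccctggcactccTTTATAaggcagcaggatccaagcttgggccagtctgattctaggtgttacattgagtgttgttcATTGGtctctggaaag
Cyp2d11 (chr15:82393973-82394272, - strand): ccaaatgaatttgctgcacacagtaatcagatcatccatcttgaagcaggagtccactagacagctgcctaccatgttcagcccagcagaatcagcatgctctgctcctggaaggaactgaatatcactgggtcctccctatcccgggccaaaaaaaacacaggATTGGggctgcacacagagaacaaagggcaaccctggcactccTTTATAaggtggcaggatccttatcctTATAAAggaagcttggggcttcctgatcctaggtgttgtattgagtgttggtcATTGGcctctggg
Cyp2d26 (chr15:82794196-82794495, - strand): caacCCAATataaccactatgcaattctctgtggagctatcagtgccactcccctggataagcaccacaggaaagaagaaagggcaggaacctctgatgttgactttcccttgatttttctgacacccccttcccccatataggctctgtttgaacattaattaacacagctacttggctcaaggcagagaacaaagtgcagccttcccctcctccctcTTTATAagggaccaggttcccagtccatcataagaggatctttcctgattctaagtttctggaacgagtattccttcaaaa
Cyp2d40 (chr15:82764073-82764372, - strand): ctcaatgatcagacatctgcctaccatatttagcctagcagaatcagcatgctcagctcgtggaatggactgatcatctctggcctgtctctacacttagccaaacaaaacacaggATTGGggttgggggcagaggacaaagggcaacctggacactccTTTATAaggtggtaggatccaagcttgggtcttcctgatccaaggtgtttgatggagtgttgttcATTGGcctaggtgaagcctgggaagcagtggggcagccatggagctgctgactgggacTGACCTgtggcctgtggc
Cyp1a1 (chr9:57697363-57697662, + strand): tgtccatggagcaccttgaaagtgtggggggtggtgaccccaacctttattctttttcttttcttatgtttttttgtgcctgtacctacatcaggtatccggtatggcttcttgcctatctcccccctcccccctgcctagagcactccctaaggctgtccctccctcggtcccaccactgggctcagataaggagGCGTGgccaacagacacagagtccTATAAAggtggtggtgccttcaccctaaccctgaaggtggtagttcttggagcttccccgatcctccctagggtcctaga
Cyp26b1 (chr6:84593761-84594060, - strand): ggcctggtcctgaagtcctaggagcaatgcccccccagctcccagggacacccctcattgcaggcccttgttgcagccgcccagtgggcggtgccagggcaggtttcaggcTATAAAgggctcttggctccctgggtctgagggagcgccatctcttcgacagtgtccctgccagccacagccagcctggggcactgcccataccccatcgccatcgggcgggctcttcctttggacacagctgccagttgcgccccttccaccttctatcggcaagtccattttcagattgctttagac

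The windows of Cyp2d9 and Cyp2d11 were identical at 89.0% of their 300 bases in a global alignment, those of Cyp2d9 and Cyp2d10 at 85.0%, and those of Cyp2d10 and Cyp2d11 at 81.7%. Cyp2d26 matched Cyp2d9 at 62.0%. Cyp2d40 matched Cyp2d9 at 66.3%, with annotated starts that are not aligned, since the TATA box begins at position -91 from the start in Cyp2d40 and at -28 in Cyp2d9. All 5 Cyp2d windows held the letters of both the TATA box and the CCAAT box, but the CCAAT positions differed. The only CCAAT match began after the start in Cyp2d9 and Cyp2d10, at 38 and 35, and at -246 in Cyp2d26. The TATA box occurred in 22 of the 58 member windows (37.9%), against 13.6% of all 32544 promoter windows of the table. The CCAAT box occurred in 29 of the 58, against 37.4% of all windows. Of 14 Cyp4 windows 1 held the TATA box and 10 the CCAAT box. None of the 5 Cyp2d windows held the STAT letters, which occurred in 8.33% of all windows, nor GCGTG, which occurred in 32.6%. The nuclear receptor half-site occurred in 1 of the 5 and in 16.2% of all windows. In Cyp1a1, GCGTG began at position -54 and the TATA box at -30, and in Cyp26b1 the TATA box began at -139. These windows share sequence because the genes are copies, so the matches are descriptions and not sites.

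Most P450 genes differed by less than 1.5-fold between the arrays, though 35 of the 68 measured lay more than 1 scanner error from 0. Most Cyp2d genes were lower and most Cyp2j and Cyp4 genes higher, while the 3 genes furthest below 0, Cyp2c39, Cyp26b1 and Cyp1a1, did not share their difference with the measured relatives in their families. Over the 68 measured genes the median difference was -0.02, against 0.00 over all 15971 measured genes, but the spread was wider, with an SD of 0.53 against 0.26. Of the 68, 4 were at least 2-fold lower in TG+STZ (5.88%, against 0.470% of all measured genes) and 1 was at least 2-fold higher (1.47%, against 0.520%). At 1.5-fold, 7 were lower (10.29%, against 1.91%) and 6 higher (8.82%, against 1.75%). The fourth of the lowest was Cyp2d34, and the highest was the pseudogene Cyp4f41-ps. Only Cyp26b1 and Cyp2d34 among these 5 were brighter than the median measured gene. Of genes that bright, 0.188% were at least 2-fold lower and 0.263% at least 2-fold higher. Of the 68, 20 lay more than 2 scanner errors from 0, 8 of them higher and 12 lower, against 7.501% of all measured genes. A single measured probe stood behind 59 of the values.

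**Figure D1:**
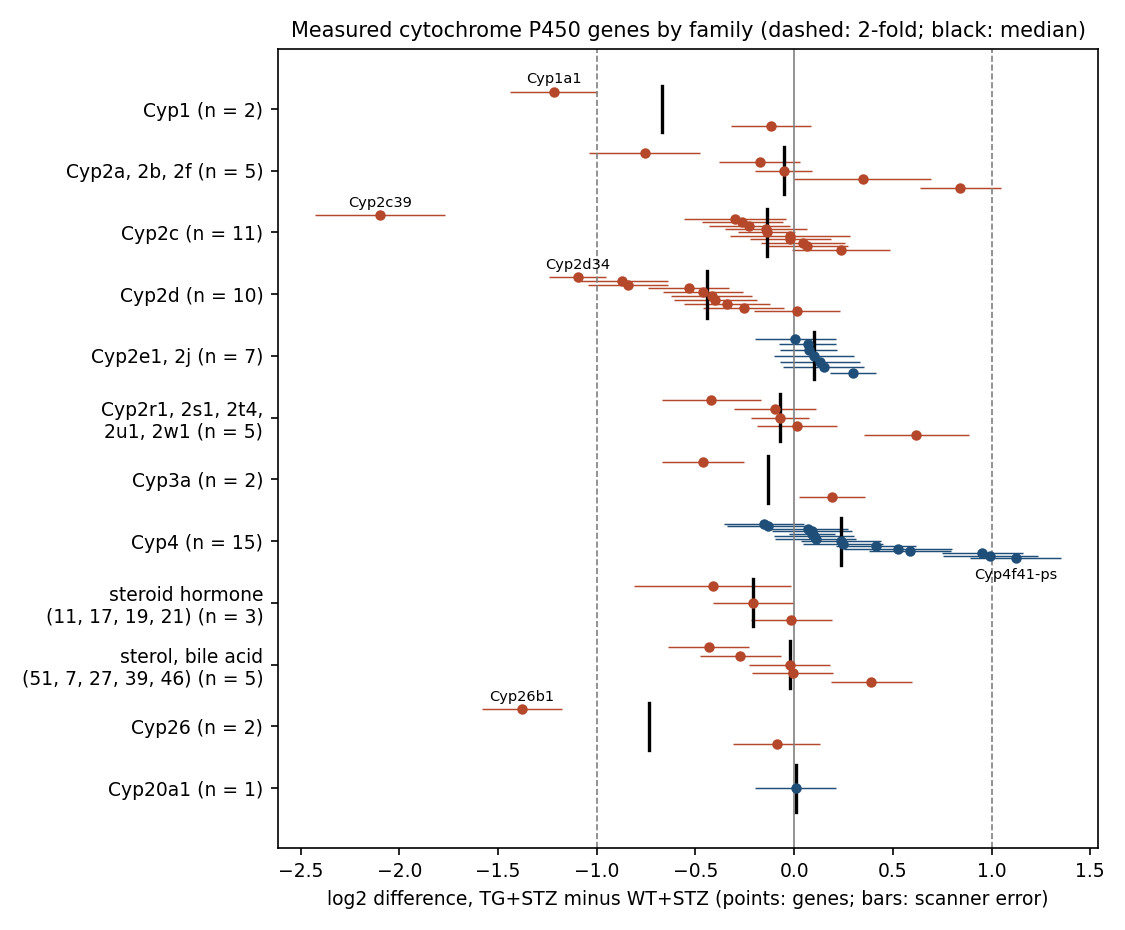
Each point is a measured P450 gene, its position on the horizontal axis is the log2 difference TG+STZ minus WT+STZ, and bars show the scanner error. Rows are families, black lines their medians and dashed lines 2-fold. Blue rows have a median at or above 0 and red rows one below 0. The Cyp2d row lies left of 0 except for Cyp2d40, and the Cyp4 row lies right of 0 for 13 of its 15 genes.

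The Cyp2d genes, which oxidise drugs and steroids, were mostly lower. Of 10 measured genes 9 were lower on the TG+STZ array, with a median of -0.44, against 0.00 over all measured genes. Of all 15971 measured genes 7839 were lower. Cyp2d40, close to 0, also turned lower under normexp background correction and when the 75th percentile was taken over detected probes. These settings place 10087 and 8940 of all 15971 measured genes below 0. Cyp2d34 had 2 probes. The first read 2510 units in TG+STZ and 7496 in WT+STZ, a difference of -1.66, and the second read 563 and 772, a difference of -0.53. Their mean was -1.10 ± 0.14, or 2.14-fold lower in TG+STZ, and the size of the Cyp2d34 difference depends on the probe. Cyp2d12 read 15273 units in TG+STZ and 25918 in WT+STZ, a difference of -0.84. The pseudogene Cyp2d37-ps stood at 44.2 and 76.6 units on the TG+STZ and WT+STZ arrays, a difference of -0.87 ± 0.23, which was -0.47 under normexp.

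The other Cyp2d genes differed less but in the same direction. Cyp2d11 read 66134 units in TG+STZ and 90674 in WT+STZ, a difference of -0.53. Cyp2d9, a testosterone hydroxylase of male mice, read 11965 and 15609 units in TG+STZ and WT+STZ, a difference of -0.46. Cyp2d22 read 2516 units in TG+STZ and 3183 in WT+STZ, a difference of -0.42. Cyp2d10 was dim, at 55.8 units in TG+STZ and 66.9 in WT+STZ (-0.34 ± 0.22), and the transcribed pseudogene Cyp2d13 stood at -0.40. Cyp2d26, at 63745 units in TG+STZ and 72062 in WT+STZ, differed by -0.26, little more than the scanner error. Cyp2d40 was the exception at 64.9 units in TG+STZ and 60.8 in WT+STZ, a difference of 0.02 ± 0.22 that was -0.22 under normexp. Members with dim and with bright probes were lower alike. Many Cyp2d genes are close copies, and whether their probes read each other's transcripts was not tested, as no probe sequences were used here, so the 10 values may not be independent measurements.

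All 10 measured Cyp2d genes lie in 1 cluster on chromosome 15, and most lay below the range of the measured genes beside it. The 3 measured genes on each side, Pheta2, Smdt1, Ndufa6, Tcf20, Nfam1 and Serhl, ran from -0.28 to 0.08 with a median of 0.04. Cyp2d26 at -0.26 and Cyp2d40 at 0.02 lay within that range. In chromosomal order the largest differences were in the middle of the cluster, at Cyp2d12, Cyp2d34 and Cyp2d37-ps.

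**Figure D2:**
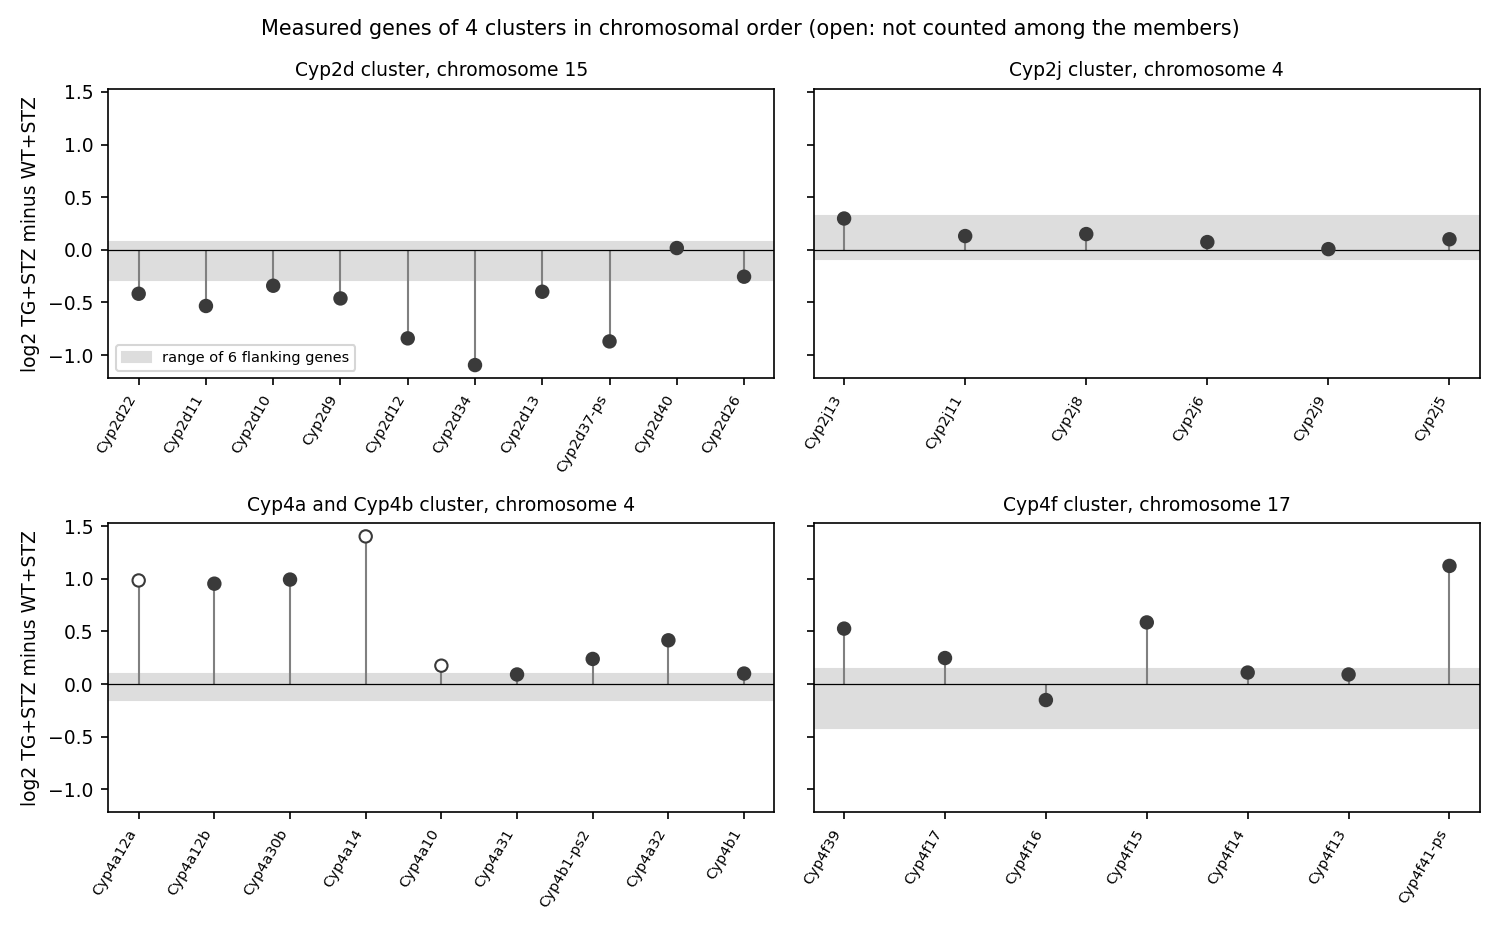
Log2 differences TG+STZ minus WT+STZ of the measured genes of 4 P450 clusters, in chromosomal order, with grey bands for the range of the 3 measured genes on either side of each cluster. Open circles are genes not counted among the members. In the Cyp2d panel 8 of 10 genes lie below the band, and in the Cyp4a and Cyp4b panel the Cyp4a12 copies, Cyp4a30b and Cyp4a14 stand highest.

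The Cyp4 genes, which hydroxylate the far end of fatty acids and eicosanoids, were mostly higher on the TG+STZ array. Of 15 measured genes 13 were higher (12 of 15 under normexp), with a median of 0.24. Of all 15971 measured genes 8132 were higher, and 5884 under normexp. The median was 0.11 without the 2 pseudogenes Cyp4f41-ps and Cyp4b1-ps2 and 0.098 under normexp. Cyp4a12b, a near copy of the fatty acid hydroxylase Cyp4a12a of male kidney, read 46014 units in TG+STZ and 22494 in WT+STZ, a difference of 0.95, or 1.94-fold. Cyp4a12a itself, not counted among the 68, stood at 0.98, and 1 transcript may reach both probes. Cyp4a14, also not counted, stood at 1.40 and Cyp4a10 at 0.17 ± 0.12. Ppara, the gene of the fatty acid receptor that induces Cyp4a genes, stood at -0.08 ± 0.12. Cyp4a30b was dim at 58.4 units in TG+STZ and 27.8 in WT+STZ, a difference of 0.99 ± 0.24 that was 0.20 under normexp. Cyp4a32 read 15580 and 11060 units in TG+STZ and WT+STZ, a difference of 0.42. Cyp4a31 had 3 probes at 0.21, 0.05 and 0.01, with a mean of 0.09 ± 0.12. The Cyp4a genes thus differed among themselves, with the 4 counted here between 0.09 for Cyp4a31 and 0.99 for Cyp4a30b and Cyp4a14 above them.

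Cyp4b1, which is strongly expressed in mouse kidney and activates lung toxins, read 224815 units in TG+STZ and 198645 in WT+STZ, a difference of 0.10. The probe of its transcribed pseudogene Cyp4b1-ps2 read 3955 and 3174 units in TG+STZ and WT+STZ, a difference of 0.24. All 6 measured members of the cluster of Cyp4a and Cyp4b genes on chromosome 4 were higher, with a median of 0.33. Over all measured genes 8132 of 15971 were higher. The 6 measured neighbours of the cluster ran from -0.15 to 0.09.

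Of 8 measured Cyp4f genes, which inactivate leukotrienes and hydroxylate long fatty acids, 6 were higher (8132 of 15971 over all measured genes). Cyp4f41-ps read 75.7 units in TG+STZ and 32.9 in WT+STZ, a difference of 1.12 ± 0.23, or 2.18-fold, and 0.37 under normexp. Cyp4f15 read 200 and 126 units in TG+STZ and WT+STZ, a difference of 0.59, and 0.31 under normexp. Cyp4f39, at 32.1 and 21.1 units in TG+STZ and WT+STZ, differed by 0.53 ± 0.27 and by -0.09 under normexp, so its direction is not settled. The brighter signals differed less. Cyp4f17 read 2257 units in TG+STZ and 1800 in WT+STZ, a difference of 0.25, and Cyp4f13 and Cyp4f14 stood at 0.09 and 0.11. Cyp4f16 and Cyp4f18, the leukotriene hydroxylase of neutrophils, were slightly lower at -0.15 and -0.13. Cyp4v3 stood at 0.07.

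**Figure D3:**
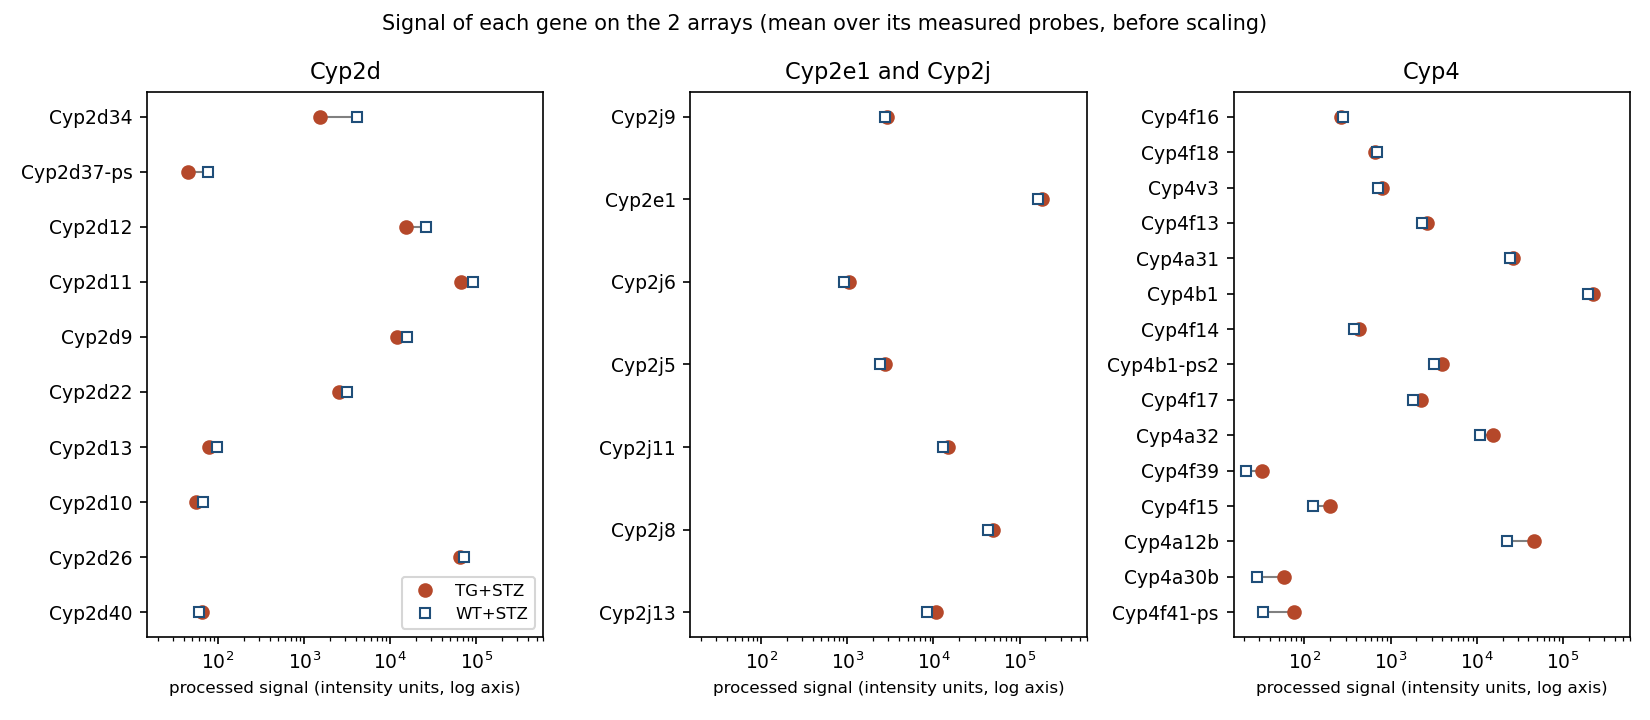
Processed signal of each measured Cyp2d, Cyp2e1, Cyp2j and Cyp4 gene on a log axis, as the mean over its measured probes and before scaling, with filled circles for TG+STZ and open squares for WT+STZ. Genes run down the page by their scaled difference, lowest first. The circle lies left of the square for every Cyp2d gene except Cyp2d40, and right of it for 13 of the 15 Cyp4 genes.

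Cyp2e1 and the Cyp2j genes were bright and differed little. Of these 7 genes all were higher, with a median of 0.10, and 6 of 7 under quantile, loess and detected-probe scaling. Of all 15971 measured genes 8132 were higher. Among the 7985 genes brighter than the median gene, where 6 of the 7 lie, 4789 were higher. Cyp2e1, which oxidises ethanol and ketone bodies, had probes reading 99941 and 267417 units in TG+STZ and 91866 and 236936 in WT+STZ, with a mean difference of 0.07 ± 0.14. Cyp2j5, an arachidonate epoxygenase of the proximal tubule, read 2711 units in TG+STZ and 2396 in WT+STZ, a difference of 0.10. Cyp2j13 was the only one of the 7 to lie more than 2 scanner errors from 0. Its 3 probes stood at 0.26, 0.32 and 0.32, with a mean of 0.30 ± 0.12, and read 14844, 3148 and 14469 units in TG+STZ and 11772, 2395 and 10972 in WT+STZ. Cyp2j8, Cyp2j11, Cyp2j6 and Cyp2j9 followed at 0.15, 0.13, 0.07 ± 0.14 and 0.01. The 6 measured genes beside the Cyp2j cluster on chromosome 4 ran from -0.09 to 0.32, so the Cyp2j values lay within the range of their neighbours.

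The Cyp2c genes, which make arachidonate epoxides and oxidise drugs, had a median of -0.14, with 3 of 11 higher and 8 lower. Their median was -0.21 under normexp. Cyp2c39, a retinoic acid hydroxylase of liver, was the lowest P450 gene. It read 12.6 units in TG+STZ and 51.2 in WT+STZ, a difference of -2.10 ± 0.33, or 4.28-fold lower. Its TG+STZ signal was close to 9.70 units, the faintest that passed as above background on that array, and the difference was -0.77 under normexp. Cyp2c38, whose promoter window was 82.0% identical to one of the windows of Cyp2c39, stood at 0.07. Cyp2c23, the main arachidonate epoxygenase of the kidney, read 3044 units in TG+STZ and 3455 in WT+STZ, a difference of -0.26. Cyp2c29 was spotted 10 times and read 280 and 310 units on average in TG+STZ and WT+STZ. Its 10 spot differences ran from -0.32 to -0.20 with a median of -0.22, so the spots of the probe agreed more closely than the scanner error.

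Other Cyp2c genes were dimmer or divided. The probes of Cyp2c67 disagreed, with 517 units in TG+STZ against 447 in WT+STZ (0.13) and 245 in TG+STZ against 308 in WT+STZ (-0.41), a mean of -0.14 ± 0.14. Cyp2c67, Cyp2c68 at -0.02, and Cyp2c40 and Cyp2c69, which have no probe of their own name, are close copies. Cyp2c70, which makes muricholic bile acids in mice, stood at -0.14, Cyp2c37 at 0.05 and Cyp2c66 at -0.02 ± 0.31. Cyp2c37 was -0.39 when its dim second probe was included. Cyp2c54 stood at -0.30 ± 0.26 and Cyp2c55 at 0.24 ± 0.25. Cyp2c55 was -0.21 under normexp. Cyp2c65 was above background on the TG+STZ array alone, at 11.8 units against 8.28 in WT+STZ, a difference of 0.43 ± 0.48. Set against 10.6 units, the faintest signal that passed in WT+STZ, its TG+STZ reading was 1.05-fold higher.

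In the Cyp2a, Cyp2b and Cyp2f group the members diverged. Cyp2b10, the standard target of the constitutive androstane receptor, read 767 units in TG+STZ and 405 in WT+STZ, a difference of 0.84, or 1.79-fold higher. Cyp2b19, an epoxygenase of skin, was lower at 22.7 units in TG+STZ and 36.2 in WT+STZ, a difference of -0.76 ± 0.28 that was -0.38 under normexp. Cyp2b13 was dim at 0.35 ± 0.35 and -0.22 under normexp. Its relative Cyp2b9 was above background on the TG+STZ array alone, at 21.3 units against 13.1 in WT+STZ. These readings differed by 0.62 ± 0.39, or 1.54-fold. Cyp2a4, a testosterone hydroxylase, had probes reading 66379 and 174356 units in TG+STZ and 67034 and 166756 in WT+STZ, with a mean difference of -0.05 ± 0.14. Cyp2a5, a near-identical copy of Cyp2a4, has no probe of its own name, so these probes may read both. Cyp2f2, which activates naphthalene in lung, stood at -0.17.

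Cyp1a1, the classical target of the aryl hydrocarbon receptor, read 47.5 units in TG+STZ and 105 in WT+STZ, a difference of -1.22 ± 0.22, or 2.32-fold lower, and -0.74 under normexp. Cyp1b1, which shares that receptor and oxidises oestradiol, did not share the difference, at 2064 units in TG+STZ and 2121 in WT+STZ (-0.12). Cyp1a2 was not above background. Of the receptor genes, Ahr stood at 0.20, its partner Arnt at -0.04 ± 0.14 and its repressor Ahrr at 0.00 ± 0.22.

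Cyp26b1, which clears retinoic acid, was the lowest of the brighter P450 genes by the mean over probes; the brighter probe of Cyp2d34, at -1.66, was lower. It read 1204 units in TG+STZ and 2962 in WT+STZ, a difference of -1.38, or 2.60-fold lower, and it stayed between -1.40 and -1.32 under the alternatives. Cyp26a1, the other retinoic acid hydroxylase above background, read 65.4 units in TG+STZ and 65.9 in WT+STZ, a difference of -0.09 ± 0.22, and Cyp26c1 was not above background. Other genes of retinoid handling went both ways, with 5 of 15 higher and 10 lower and a median of -0.04. Crabp2, a carrier of retinoic acid, stood at 0.68, Aldh1a3, which makes retinoic acid, at 0.57 and Lrat, which stores retinol as ester, at -0.57. Dhrs3, which turns retinal back to retinol, stood at -0.24. Rarb, a receptor gene that retinoic acid itself induces, read 766 units in TG+STZ and 921 in WT+STZ on average over its probes, a difference of -0.33 ± 0.14. 

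Enzymes of sterol and bile acid synthesis differed one by one. Cyp7b1, which hydroxylates oxysterols and androgens, read 26941 units in TG+STZ and 34420 in WT+STZ, a difference of -0.43. Cyp39a1, an oxysterol hydroxylase, was higher, at 1636 units in TG+STZ and 1182 in WT+STZ (0.39). Cyp27a1 of mitochondria was spotted 10 times, and its spot differences ran from -0.37 to -0.18 with a median of -0.28. Cyp51, the lanosterol demethylase of cholesterol synthesis, stood at -0.01 and Cyp46a1, the cholesterol hydroxylase of brain, at -0.02. Cyp7a1 and Cyp8b1, the bile acid enzymes of liver, were not above background.

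Of the steroid hormone enzymes, Cyp17a1, which makes androgen precursors, read 6945 units in TG+STZ and 6637 in WT+STZ, a difference of -0.01. Cyp11a1, Cyp11b1 and Cyp11b2 of the adrenal cortex were not above background on either array. Of 9 adrenal cortex markers 7 were measured, 5 higher and 2 lower, with a median of 0.11. Their summed signals of 44748 units in TG+STZ and 37005 in WT+STZ were mostly Fdx1, at 42849 and 35241 in TG+STZ and WT+STZ, which kidney also expresses. Mc2r and Hsd3b1 were not above background on both arrays. Mrap was dim, at 62.8 units in TG+STZ and 24.7 in WT+STZ, a difference of 1.26 ± 0.25. The other measured markers of this list ran from -0.07 to 0.20. The part of adrenal RNA in these values was not tested. Cyp21a1 had 1 probe at 186 units in TG+STZ and 203 in WT+STZ (-0.21) and a second that was not above background. Cyp19a1, the aromatase gene, lay close to background at 11.6 and 14.6 units in TG+STZ and WT+STZ, a difference of -0.41 ± 0.40.

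The Cyp3a genes, the main drug oxidases of liver and gut, were mostly not above background, with 2 of the 8 that have a probe measured. Cyp3a11, a target of the pregnane X receptor, read 115 units in TG+STZ and 150 in WT+STZ, a difference of -0.46. Its second probe was not above background, and with that probe included the difference was -0.21. The probes of Cyp3a13 stood at 0.46 and -0.08, a mean of 0.19 ± 0.17 that was -0.09 under normexp and -0.08 with the brightest probe alone. Nr1i2, the gene of that receptor, stood at -0.20, and Nr1i3, that of the constitutive androstane receptor, at 0.10.

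Among members that stand alone in their subfamily, Cyp2w1 was higher at 34.3 units in TG+STZ and 21.1 in WT+STZ, a difference of 0.62 ± 0.27 that was 0.03 under normexp. Cyp2u1, a fatty acid hydroxylase, was lower at 29.0 and 36.8 units in TG+STZ and WT+STZ (-0.42 ± 0.25). Cyp2r1, which makes the circulating form of vitamin D, Cyp2s1, Cyp2t4 and Cyp20a1 stood at -0.07 ± 0.15, 0.01, -0.10 and 0.01.

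Besides the genes already named, Cyp2a12, Cyp2a22, Cyp2b23, Cyp2c50, Cyp2g1, Cyp3a16, Cyp3a25, Cyp3a41b, Cyp3a44, Cyp3a57, Cyp3a59, Cyp4a29, Cyp4f37, Cyp4f40 and Cyp4x1 were not above background on either array. Of the 35 members with no probe, 30 are pseudogenes in RefSeq and 5 code for protein, namely Cyp2a5, Cyp2c40, Cyp2c69, Cyp2j12 and Cyp3a41a. No accession on the array belongs to more than 1 P450 gene, so sharing of probes among copies is a matter of sequence, which the tables used here do not hold.

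Of 11 measured genes of electron transfer 9 were higher, with a median of 0.07, and none reached 1.5-fold. Of all 15971 measured genes 8132 were higher. Por, the reductase that feeds all microsomal P450s, read 57312 units in TG+STZ and 45806 in WT+STZ, a difference of 0.24. Cyb5a, which encodes cytochrome b5, stood at 0.17, and Fdx1, the ferredoxin of mitochondrial P450s, at 0.20 ± 0.14. Of 14 genes of haem synthesis and breakdown 11 were higher, with a median of 0.04. Alas1, the rate-limiting enzyme of haem synthesis, stood at 0.33 ± 0.14, and Blvrb, a biliverdin reductase, at 0.86, the only gene of this list past 1.5-fold.

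Transcription factors known to act on P450 genes had a median of 0.00, with 12 of 21 higher and none at 1.5-fold. Nr1h4, the bile acid receptor gene, stood at 0.47, Cebpb at 0.39 and Nr5a2 at -0.22 ± 0.24. Hnf4a, which drives many liver and kidney P450 genes, stood at 0.00. Epoxide and eicosanoid enzymes had a median of -0.05, with 4 of 13 higher. Ephx2, the soluble hydrolase of arachidonate epoxides, stood at 0.27, Alox5 at 0.27 and Alox12 at -0.26 ± 0.17.

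Conjugating enzymes and exporters had a median of 0.11, with 19 of 26 higher (8132 of 15971 over all measured genes) and 1 past 1.5-fold. Abcc3, an exporter of conjugates, read 1084 units in TG+STZ and 326 in WT+STZ, a difference of 1.65. The glucuronosyltransferases Ugt2b35 and Ugt2b38 stood at 0.56 and 0.48 and Ugt8a at 0.51. Of the other oxidases and reductases 11 of 16 were higher, with a median of 0.05. Xdh, the xanthine dehydrogenase, was far apart at 236 units in TG+STZ and 886 in WT+STZ, a difference of -1.99, and Aox3 stood at -0.32 ± 0.36.

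**Figure D4:**
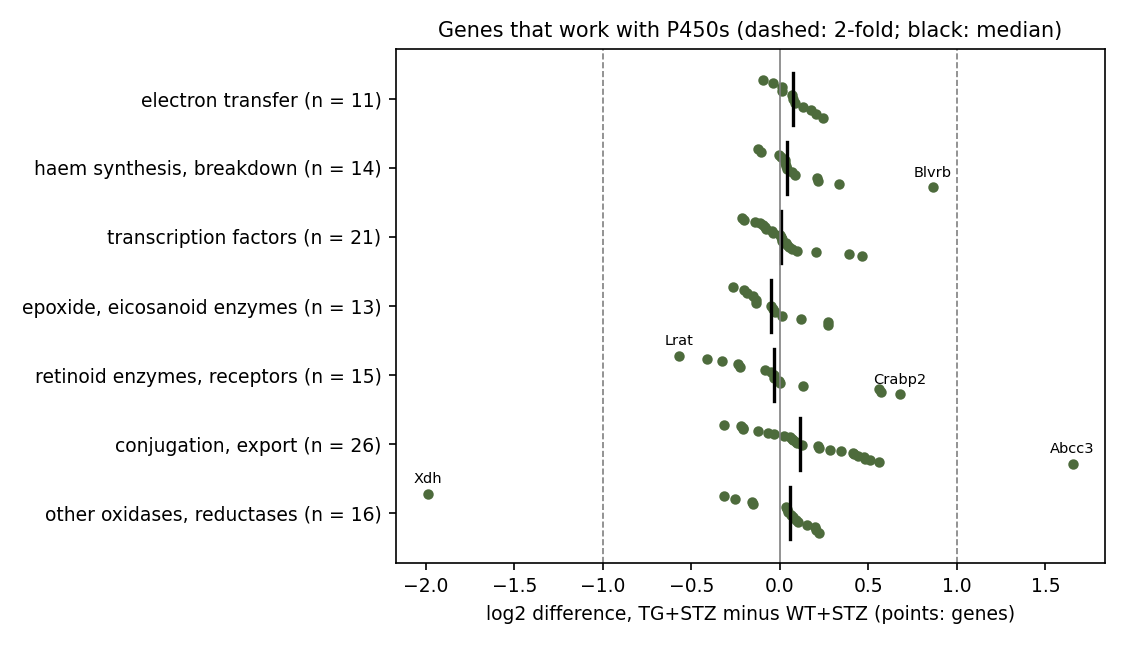
Each point is a gene that works with P450s, by its log2 difference TG+STZ minus WT+STZ, with rows for the 7 gene lists, black lines for medians and dashed lines at 2-fold. All medians lie between -0.05 and 0.11, and Abcc3 and Xdh are the only genes past 2-fold.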

How the data were processed

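Per the file headers, the deposited tables hold 1-colour (Cy3) Agilent processed intensity per spot, background-subtracted and detrended within each array by Feature Extraction 10.7.1.1. Version 10.3.1.1 stands in the submitters' processing notes. The series' value table held the same intensity at all 44397 spots. Signals were taken to log2 and scaled by subtracting, per array, the 75th percentile over its 43020 gene spots. Control spots and spots marked as outliers (109 in TG+STZ, 114 in WT+STZ) were left out. Probes were named by accession through RefSeq (GRCm38.p6), which matched 26404 of 39426. The array design was annotated on another build. RefSeq was used for names, neighbours and promoter windows, and positions are given for the printed windows alone. A probe had to be unsaturated and well above background on each array. Spots were averaged by probe and then by gene. Errors combine the software's errors of both arrays. Called means at least 2-fold or 1.5-fold; with 1 array per group there is no test.

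The members and gene lists were chosen with earlier results of these data known. Every measured member may be named, with 3 genes furthest from 0 and the brightest of each list that works with P450s, and likewise 2 and the brightest of each marker list. Rarb, Ppara, Ahr, Arnt, Ahrr, Nr1i2, Nr1i3, Adipoq, Mc2r, Hsd3b1, Apoa1, Ahsg and Tdo2 were named outside that rule, with their values seen. Alternatives were normexp with an offset of 50, 5 other scalings, 2 detection filters, the positive and significant flag, the brightest probe, 1.5-fold and the value table. Alternatives added after seeing the data left out pseudogenes or members whose probes lie over 0.5 apart. Leaving out members by protein identity was not run, as no protein sequences were used. The steps were tested on simulated data. Tools were Python 3.11.15, pandas 2.3.3, statsmodels 0.14.6, Biopython 1.88, R 4.3.3 and limma 3.58.1.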

Additional observations from a re-analysis of the deposited data

How the results depend on the processing

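With 1 array per group the calls below rest on size alone. The main setting gave 1 member past 2-fold higher and 4 lower. Normexp left 0 and 2, genes brighter than the median gene alone 0 and 2, and the 1.5-fold threshold gave 6 and 7. Median scaling, quantile normalization, loess and spike-in centring each gave 2 higher and 4 lower. There were 3 higher without a filter on dim probes (and 5 lower) and 3 with the positive and significant flag (and 4 lower), and 0 higher and 4 lower without pseudogenes. The members' median of -0.02 was -0.15 under normexp and 0.0063 among the brighter genes. The Cyp4 median of 0.24 was 0.098 under normexp and 0.11 without pseudogenes. The 1.5-fold, brighter-gene, pseudogene, no-filter and flag settings change what is counted by construction. Without the filter, Cyp2g1 at 1.17, Cyp4f37 at 1.18 and Cyp11b1 at -1.24, none above background on either array, were also counted. Cyp4a30b lay just under 2-fold at 0.99 in the main setting and reached at most 1.04 under the alternatives. For the other settings the cause was not tested.

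The Cyp2d median stayed between -0.50 and -0.42 and that of Cyp2e1 and Cyp2j between 0.08 and 0.12 under the alternatives run for them. Of 641 values of single members under alternatives, 20 in 17 members moved by more than their scanner error, 13 of them under normexp. The 13 members past 1.5-fold kept their direction under every alternative in which they were measured. No paired analysis was possible because there was 1 array per group. Precision is limited by that number and, for dim probes, by signal close to background.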
